A study of Mus musculus with 960 samples.

Results

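The regions described here are stretches of open chromatin far from gene starts in which several separate summits of accessibility were called. They come from the list of accessible windows deposited for a mouse breast tumour, in which each window of 500 bp is centred on 1 summit and named after the called peak it belongs to. A called peak was taken as a multi-summit distal region when 3 or more of its windows were in the list and every one of their summits lay more than 1 kb from each start site of a protein-coding transcript. The list held 50000 windows of 38400 called peaks, and 890 peaks with 3025 windows met the rule. They were therefore selected on measured values, namely the number of kept windows and their place, and these 2 properties are given below only as a description.

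The study, which joined protein staining to single-cell ATAC-seq, took a primary tumour from the MMTV-PyMT mouse, whose transgene expresses the polyoma middle T oncogene from the mouse mammary tumour virus promoter, at 3 months of age. Cells were fixed, permeabilised and stained, their open DNA was tagged in bulk by Tn5 transposase, and single cells were sorted into wells. By the labels, 8 plates of 96 wells were stained with antibodies to EpCam, which marks epithelial cells, and to the hypoxia-inducible factor subunit HIF1a, and 2 such plates to EpCam and to CD45, which marks blood cells. The list was called on pooled cells, so it is 1 sample with no replicate. It holds no read count or score, and the depth behind a window is unknown. Which wells entered the pool is not stated, although the study describes the cells of its HIF1a experiment as EpCam-positive. No test between conditions was possible, no p-value is given, and the exact (Clopper-Pearson) 95% intervals below cover counting error only, with windows that overlap or lie in 1 region counted as if they were independent.

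Open chromatin is DNA from which nucleosomes have been moved aside, mostly by transcription factors that bind together. Away from promoters such stretches are often enhancers, which act on genes over a distance, and several enhancer units can lie side by side and form a broad open domain. In mammary epithelium such elements are bound by factors of the AP-1, nuclear factor I (NFI), RUNX, TEAD, ETS and Grainyhead-like families, while binding sites of SP/KLF factors and CpG-rich DNA are typical of promoters.

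The regions with the most summits show what an open stretch of this kind looks like at the level of the bases. For 4 of the 5 regions with the most windows, for the region beside the microRNA gene Mir200c and for the most CpG-rich of the large regions, the 6 sequences below give 200 bases of the plus strand centred on 1 summit, on build NCBIM37 (mm9). In each region the summit with the most different motifs was taken, and at Fat1 the one with the most CG pairs. Capitals mark matches to the motifs of AP-1, NFI (a half-site), RUNX, TEAD, ETS and Grainyhead-like factors on either strand, except at Fat1, where they mark every CG.
Coro2a chr4:46601452-46601651: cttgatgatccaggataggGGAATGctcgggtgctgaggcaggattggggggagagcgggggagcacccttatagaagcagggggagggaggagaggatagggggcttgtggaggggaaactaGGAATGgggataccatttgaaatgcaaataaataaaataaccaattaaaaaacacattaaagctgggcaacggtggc
6430527G18Rik chr12:88233942-88234141: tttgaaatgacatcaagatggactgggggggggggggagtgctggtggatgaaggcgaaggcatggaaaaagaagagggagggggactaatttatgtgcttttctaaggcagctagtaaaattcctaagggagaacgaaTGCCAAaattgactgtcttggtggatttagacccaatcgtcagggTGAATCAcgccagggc
Bcl9l chr9:44293897-44294096: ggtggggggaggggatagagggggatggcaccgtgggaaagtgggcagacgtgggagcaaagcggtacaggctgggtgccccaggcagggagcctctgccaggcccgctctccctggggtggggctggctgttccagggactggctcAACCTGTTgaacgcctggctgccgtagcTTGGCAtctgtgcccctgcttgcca
Irf2bp2 chr8:129190380-129190579: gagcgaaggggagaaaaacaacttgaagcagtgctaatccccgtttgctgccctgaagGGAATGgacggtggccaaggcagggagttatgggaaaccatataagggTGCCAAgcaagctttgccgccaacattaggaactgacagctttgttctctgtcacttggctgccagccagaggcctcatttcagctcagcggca
Ptpn6 chr6:124668110-124668309: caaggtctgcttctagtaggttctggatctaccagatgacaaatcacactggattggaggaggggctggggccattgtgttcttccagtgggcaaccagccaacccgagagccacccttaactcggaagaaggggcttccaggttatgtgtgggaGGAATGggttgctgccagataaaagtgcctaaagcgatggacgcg
Fat1 chr8:46023341-46023540: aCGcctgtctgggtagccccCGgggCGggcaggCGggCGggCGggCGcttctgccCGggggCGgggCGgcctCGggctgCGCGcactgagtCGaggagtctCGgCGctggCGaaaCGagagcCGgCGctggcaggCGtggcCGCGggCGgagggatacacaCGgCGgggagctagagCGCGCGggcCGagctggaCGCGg

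In the Coro2a sequence both capital blocks are TEAD matches. The 6430527G18Rik sequence holds an NFI half-site and an AP-1 match, the Bcl9l sequence a Grainyhead-like match and an NFI half-site, and the Irf2bp2 sequence a TEAD match and an NFI half-site. The sequence at Ptpn6 has 1 TEAD match, and the one at Fat1 has 32 CG pairs in 200 bases. A match to these letters is a description of the DNA and not evidence that a factor was bound.

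Most multi-summit distal regions had the smallest number of windows that the rule allows. Of the 890 regions, 73.7% had 3 windows, 17.9% had 4, 50 regions had 5, 15 had 6 and 6 had 7, while 1 region each had 8 and 9 and 2 had 11. Just outside the rule were 3039 distal peaks with 2 windows and 22189 with 1. On the distance side, the regions nearest to the limit were those of Aim1 (1013 bp from a start site) and 6330512M04Rik (1015 bp), and the peaks that just missed it were those of Lnx1 (1000 bp) and 0610009L18Rik (993 bp). Another 1332 called peaks with 3 or more windows reached to 1 kb or less from a start site, so distal peaks were 40.1% of the 2222 called peaks with 3 or more windows, against 73.7% of the peaks with 1 window. The rule asks for distance at every window, so a peak with more windows misses it more easily. The part of this in the difference was not tested.

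The 25 regions with 6 or more windows are named here by the nearest protein-coding gene, or by the gene they lie in. The 11 summits at Coro2a, which encodes an actin-binding protein of the coronin family, spread over 4825 bp of an intron (chr4:46597796-46603120), with gaps of 0.264 to 0.750 kb between neighbours. The other region with 11 windows lay 8278 bp upstream of the nearest start site of 6430527G18Rik (chr12:88231932-88236676), and its summits were 0.277 to 0.831 kb apart. The 9 summits between genes near Ly6e, which encodes a lipid-anchored surface protein, covered the longest stretch of all, 5323 bp, and included the widest gap, 1473 bp. The 8 summits upstream of Bcl9l, a co-activator of beta-catenin in Wnt signalling, covered 4075 bp (chr9:44291797-44296371). The first summit of a second region, of 3 windows, lay 0.654 kb beyond its last summit, so that 11 summits of 2 called peaks followed each other there.

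The 6 regions with 7 windows lay near Irf2bp2, a transcriptional co-repressor, Rhof, Tpcn1, an endolysosomal ion channel, Cd69, an activation antigen of lymphocytes, Atp6ap2, an accessory subunit of the vacuolar proton pump, and 2010111I01Rik. Their summits covered 3816 bp at Irf2bp2 and 2061 bp at 2010111I01Rik, with the other 4 between these values. The last of these regions overlapped Fancc of the Fanconi anaemia repair pathway as well, and its smallest gap was 92 bp. Nearest genes of the 15 regions with 6 windows included Vgll4, a cofactor of TEAD proteins, Kdm6b, a histone H3 lysine demethylase, Zc3h12a, a ribonuclease that degrades cytokine messages, Fat1, an atypical cadherin, Elmo1, a regulator of Rac in phagocytosis and cell migration, Ddah1, a dimethylarginine hydrolase, Rngtt, the messenger RNA capping enzyme, and Derl3, of the endoplasmic reticulum degradation pathway. The remaining 7 were near Cpn2, 5330417H12Rik (inside an intron of Ppfibp2), Pdzd2, Olfr1423, Hfe2, Tcf20 and Arhgap5. Of the 25 regions, 13 were intergenic, 9 were in introns, 2 were in long noncoding genes outside protein-coding ones and 1 was in a UTR. The plot of their summits shows that the spacing was irregular and that none of these regions had an AP-1 or an NFI match at every summit.

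**Figure D1:**
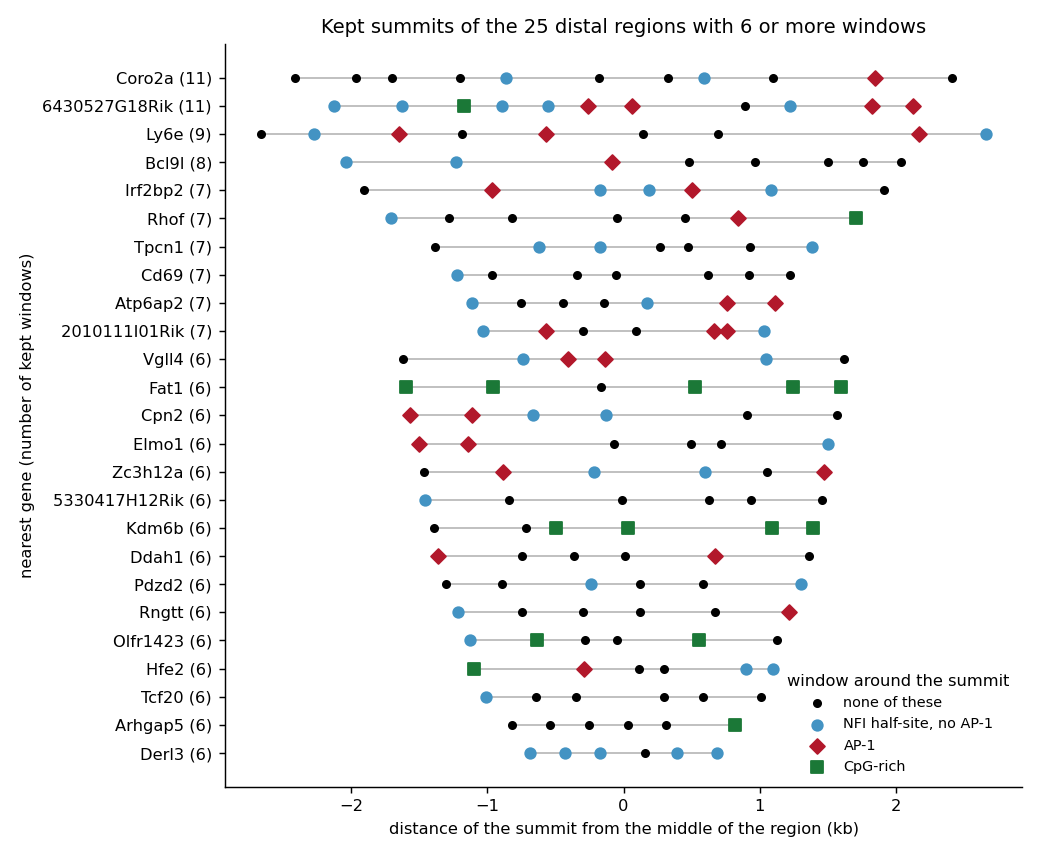
Summits of the 25 distal regions with 6 or more windows, each drawn at its distance in kb from the middle of its region, with the nearest gene and the number of windows at the left. Green squares mark CpG-rich windows whatever else they hold, red diamonds the other windows with an AP-1 match, blue circles those with an NFI half-site and no AP-1 match, and black dots the rest; Fat1 has 5 CpG-rich windows of 6 and Derl3 has an NFI half-site in 5 of 6.

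Within a region the summits mostly lay less than 0.5 kb apart. Over all 890 regions the median distance between neighbouring summits was 0.420 kb (95% interval of the median 0.407 to 0.430, n = 2135 pairs), against 0.390 kb (0.383 to 0.398, n = 3039) in distal peaks with 2 windows and 0.458 kb (0.451 to 0.466, n = 3377) in start-site peaks with 3 or more windows. The quartiles of the distances in the regions were 0.308 and 0.564 kb, and the extremes were 47 and 1473 bp. Only 0.937% of the distances in the multi-summit regions were under 150 bp, and 9.60% were from 150 to under 250 bp, whereas 54.5% were from 250 to under 500 bp. The share of 500 bp or more was 34.9% (32.9 to 37.0), against 29.6% (28.0 to 31.3) in distal peaks with 2 windows and 41.4% (39.7 to 43.1) in start-site peaks. In the other 65.1% of pairs the windows of 500 bp overlapped and shared bases.

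From first to last summit the regions measured 956.5 bp at the median, with extremes of 0.266 and 5.32 kb, against 1123 bp in start-site peaks with 3 or more windows. The windows of a region merged into 1 unbroken block in 360 regions, into 2 blocks in 360 and into 3 to 6 in the other 170. The median region covered 1363.5 bp. The letters that name the summits of a called peak showed a missing summit before the last kept one in 40 regions (4.49%, 3.23 to 6.07), against 3.39% (2.77 to 4.10) of distal peaks with 2 windows, so most regions lacked none of the summits up to their last kept letter.

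**Figure D2:**
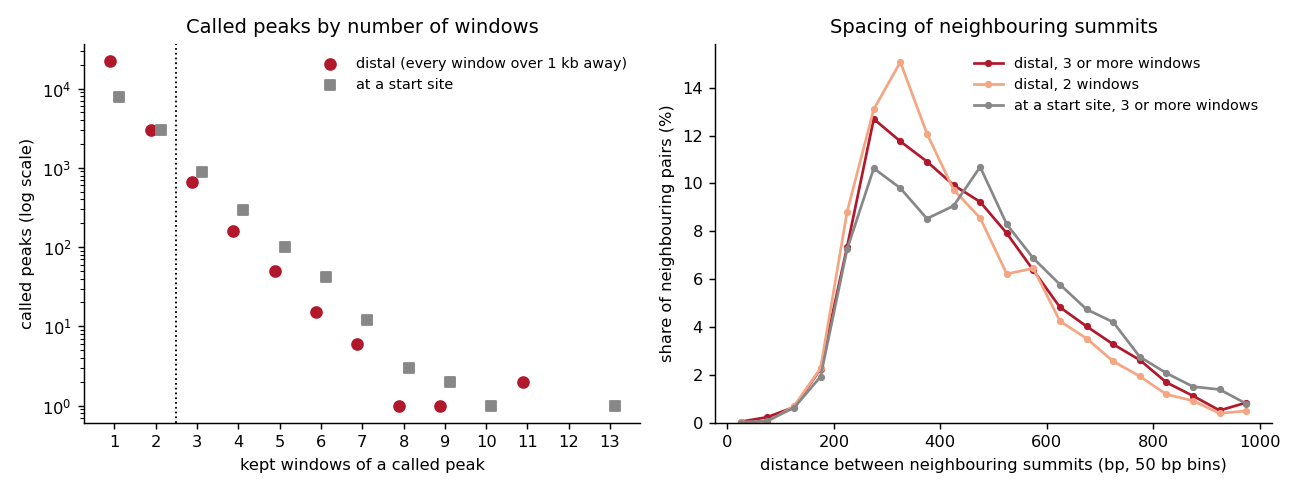
The left panel gives the number of called peaks, on a log axis, by the number of kept windows for distal peaks (red circles) and peaks at a start site (grey squares), with the limit of the rule as a dotted line. The right panel gives the share of neighbouring summit pairs in bins of 50 bp for 3 classes of called peak; distances under 150 bp are rare in all of them, and the medians are 0.420, 0.390 and 0.458 kb for distal peaks with 3 or more windows, distal peaks with 2 windows and start-site peaks with 3 or more windows.

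The place of the regions among genes was close to that of other distal peaks. The central summit lay between genes in 48.8% (45.4 to 52.1) of the 890 regions, against 46.9% (45.1 to 48.7) of distal peaks with 2 windows and 45.8% (45.1 to 46.4) of those with 1. It lay in an intron of a protein-coding gene in 42.9% (39.6 to 46.2) of the regions, against 44.7% of distal peaks with 2 windows and 46.4% of those with 1. Coding exons held 15 regions (1.69%, 0.946 to 2.76), against 3.12% (2.90 to 3.36) of distal peaks with 1 window, and UTRs held 14. The median distance of the central summit to a start site was 22854 bp (20423 to 26840), against 23062 bp for distal peaks with 2 windows and 24099 bp for those with 1, and these intervals overlap. Of the regions, 13.6% were over 100 kb from any start site and 16.6% within 5 kb.

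Counted by called peak and not by summit, starts of long noncoding genes were more frequent at the multi-summit regions than at other distal peaks. The central summit was inside a long noncoding gene and outside every protein-coding gene in 45 regions (5.06%, 3.71 to 6.71), against 4.57% (3.86 to 5.38) of distal peaks with 2 windows and 2.92% (2.71 to 3.16) of those with 1. In 53 regions (5.96%, 4.49 to 7.72) a summit lay within 1 kb of the start of a long noncoding transcript, against 3.69% (3.04 to 4.42) of distal peaks with 2 windows and 1.59% (1.43 to 1.76) of those with 1. The count is over any kept summit of a peak, of which a region has 3 or more and a 1-window peak has 1, and a share per summit was not compared. In 43 of the 53 regions the summit was no more than 250 bp from the noncoding start. Among the regions with 7 or more windows there were 3, namely those near 6430527G18Rik (0.105 kb from the start of Gm17422), Rhof (0.109 kb from AI480526) and Cd69 (0.131 kb from 2310001H17Rik). Others, picked after their values were seen, were the 3-window region upstream of Elf5, a luminal progenitor transcription factor (10 bp from BC016548), the 4-window region at Igf2r (20 bp from Airn, the noncoding transcript of an imprinted domain) and the 4-window region near Xbp1, a factor of the unfolded protein response (82 bp from Gm11963). For such regions, distal means only away from protein-coding starts.

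CpG-rich windows, here those with over 50% GC and a ratio of observed to expected CpG over 0.6, were present in 16.0% (13.6 to 18.5) of the 890 regions, and in 21 regions (2.36%) every window was of this kind. Counted by window they made up 8.69% (7.71 to 9.76), against 6.53% (5.92 to 7.18) in distal peaks with 2 windows and 4.11% (3.86 to 4.38) in those with 1. Of the 53 regions at a long noncoding start, 24 (45.3%, 31.6 to 59.6) had a CpG-rich window, against 14.1% (11.8 to 16.6) of the other 837. The largest number, 5, was found in the regions near Fat1 (of 6 windows), A930004D18Rik (of 5) and Tgfb1, which encodes the cytokine TGF-beta 1 (of 5). The median GC share of member windows was 51.2% (51.0 to 51.4), against 50.8% in distal peaks with 2 windows, 50.2% in those with 1 and 60.4% in start-site peaks with 3 or more windows. The median CpG ratio was 0.260 (0.252 to 0.266), against 0.242 in distal peaks with 2 windows, 0.228 in those with 1 and 0.679 in start-site peaks, so by composition the regions resembled other distal peaks far more than start-site peaks.

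The gene nearest to a region usually had an open start site of its own. Over all protein-coding genes, 51.8% had an open start site, meaning a window no more than 1 kb away. Of the 890 regions, 76.6% (73.7 to 79.4) had such a gene nearest to them, against 77.3% (75.8 to 78.8) for distal peaks with 2 windows and 73.0% (72.4 to 73.6) for those with 1. The regions also had more windows around them than other distal peaks. The list had a mean of 4.31 further windows of other called peaks within 20 kb of a region, against 3.48 around distal peaks with 2 windows and 2.82 around those with 1. At least 1 was found around 776 regions (87.2%, 84.8 to 89.3), against 82.0% and 75.5%. Windows were kept by their q-value, and 41.9% of the 10 called peaks nearest in number to each region were kept, against 38.5% for distal peaks with 1 window and 35.1% of all peak numbers.

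Several genes had more than 1 region. Of the 22202 protein-coding gene symbols, 830 (3.74%) contained a region or were the gene nearest to one, and 13.5% of them had 2 or more. The last share was not compared with that for other distal peaks. Bcor, which encodes a co-repressor that works with BCL6 and a Polycomb complex, had 6, with 3, 3, 3, 4, 3 and 3 windows. Of these, 5 lay in introns of Bcor over 80.8 kb (chrX:11655602-11736353). Chromosome X held 17 regions in all, so 6 of the 17 belonged to Bcor. Stk39, a kinase that regulates ion cotransporters, had 4 regions, all in its introns, with 3, 5, 3 and 3 windows. Nfix, an NFI transcription factor, had 4, of which 3 were intronic and lay within 11.9 kb. The other was in its UTR, and the start site nearest to it was that of Lyl1. Zfp36l2, an RNA-binding protein that promotes decay of AU-rich messages, also had 4, all with 3 windows, and 1 of them was inside the neighbouring gene Thada. In 2010111I01Rik there were 3 regions with 5, 3 and 7 windows. An open start site was found at 75.1% (72.0 to 78.0) of the 830 genes.

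Some regions lay close to each other. Another multi-summit region lay within 50 kb of 23.8% (21.1 to 26.8) of all regions and within 20 kb of 14.9% (12.7 to 17.5). These shares were not compared with those of other distal peaks. They also depend on how many regions the rule takes, since the share within 50 kb was 46.5% with 2 or more windows and 10.3% with 4 or more. Groups joined by steps of at most 50 kb held 2 regions in 78 cases, 3 in 13, 4 in 3 and 5 in 1, the last being the group at Bcor. The 3 bins of 1 Mb with the most regions held 6 each. The first, on chromosome 8 (87000001 to 88000000), held the regions of Nfix and those near Junb, an AP-1 subunit, and Hook2, among 50 distal peaks. The region near Lyl1 in this bin is the one in the UTR of Nfix. The second, on chromosome 2 (167000001 to 168000000), held regions near Snai1, a repressor of epithelial genes, Tmem189, Cebpb, a C/EBP factor, and Ptpn1, a tyrosine phosphatase, among 68 distal peaks. The third, on chromosome X (11000001 to 12000000), held those of Bcor among 38. By chromosome the regions made up from 2.76% (chromosome 5, 2.01 to 3.69) to 4.06% (chromosome X, 2.38 to 6.42) of distal peaks, and all intervals overlapped.

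Several genes of the luminal epithelium had a region, among them keratin genes and Gata3. Over all genes the share with a region was 3.74%, and 40.0% had a distal peak with 1 window. Of 30 luminal epithelial genes, 8 had a region (26.7%, 12.3 to 45.9) and 23 had a distal 1-window peak. The 8 were Grhl2, a Grainyhead-like factor of epithelial identity with 2 regions of 3 windows each, Gata3, the luminal GATA factor with a region of 4 windows in its own intron (chr2:9792650-9794449), the keratin genes Krt18 and Krt19 with 4 windows each and Krt8 with 3, and Cldn4, Elf5 and Kit with 3 each. The region nearest to Krt18 (chr15:101846646-101848988) lay 9279 bp from the one nearest to Krt8. Of 20 basal and myoepithelial genes, 2 had a region, Sox10 and Egfr. The 20 pan-immune genes gave 3, namely Ikzf1, Lcp1 and Runx1, and the 20 fibroblast and endothelial genes gave 2, Col1a1 and Erg, with a distal 1-window peak at 9 of the pan-immune and 12 of the fibroblast and endothelial genes. The intervals of all these lists overlapped that of the luminal list. Of shorter sets of defining markers, 6 of 10 luminal markers had a region and 9 of 10 had an open start site, whereas none of 5 basal, 6 immune and 4 endothelial markers had either, and of 5 fibroblast markers only Col1a1 had a region, its own start site not being open, and 1 other had an open start site. The study describes the cells analysed with the HIF1a stain as EpCam-positive. The cells behind each region are not recorded in a pooled list, so their part in these counts was not tested.

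Among transcription factors, all 4 NFI genes had a region (100%, 39.8 to 100), namely Nfix with 4, Nfib with 2 intronic ones over 100 kb from its nearest start site, and Nfia and Nfic with 1 each. The median number of regions was 1.5 for a gene of this list and 0 for every other list and over all genes. All 4 NFI genes also had a distal 1-window peak. Of 20 ETS genes, 5 had a region, Elf2 and Etv5 with 2 each and Elf5, Erg and Etv6 with 1. Of 13 Runx, Tead and Grhl genes, 4 did, Grhl2 with 2, Tead1 with 1 of 5 windows, and Grhl1 and Runx1 with 1 of 3, and all 13 had a distal 1-window peak. Of 14 AP-1 genes, 2 did, Junb and Jun.

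Among signalling genes, the Wnt and Notch list had the most, 10 of 30 (33.3%, 17.3 to 52.8), with a distal 1-window peak at 27. Notch1, the receptor, had 3 regions with 3, 5 and 4 windows, 2 of them in its introns (chr2:26356233-26358188 and chr2:26361864-26364364) and 1 in the intergenic DNA 17669 bp upstream (chr2:26388810-26391522). Bcl9l had 11 windows in 2 regions, Fzd7, a Wnt receptor, had 7 in 2, and Hes1, a Notch target, had 6 in 2 that lay 1151 bp apart. The TGF-beta list had 5 of 22, led by Id2, an inhibitor of helix-loop-helix factors, with 3 regions of 4 windows each, and Tgfb1 with 1 intronic region of 5 windows. The receptor tyrosine kinase list had 6 of 26, with 2 regions at Fgfr2 and 1 each at Ephb4, Egfr, Igf1r, Kit and Ror1. The 2 counted for Fgfr2 lay within its annotated span but also inside other genes. They were in Lhpp, 439811 bp from a start site of Fgfr2, and in Ctbp2, 69404 bp from one. The list of ERK feedback genes had 3 of 18, the phosphatases Dusp6 and Dusp8 and the receptor inhibitor Errfi1.

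The hypoxia response list, which bears on the HIF1a stain, had 5 of 41 (12.2%, 4.08 to 26.2) and a distal 1-window peak at 33. These were Cited2, a negative regulator of HIF, with 2 regions, Mxi1, an antagonist of Myc, with an intronic region of 5 windows, and Adm, the vasodilator adrenomedullin, Ldha, lactate dehydrogenase, and Slc2a1, a glucose transporter, with 3 windows each. The cell cycle and p53 list had 5 of 26, Mcl1, Bbc3, Ccnd1, Cdkn1b and Mycn. Lowest were the 12 genes of milk protein and the fat globule with 1, Btn1a1 (8.33%, 0.211 to 38.5), and the 34 of adhesion and junctions with 2, Ctnnd1 and Cldn4 (5.88%, 0.721 to 19.7), although 32 of the 34 had a distal 1-window peak. Every list was above 3.74%, and the intervals of 7 lists included it. The counts describe where the regions lie and single out no list.

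**Figure D3:**
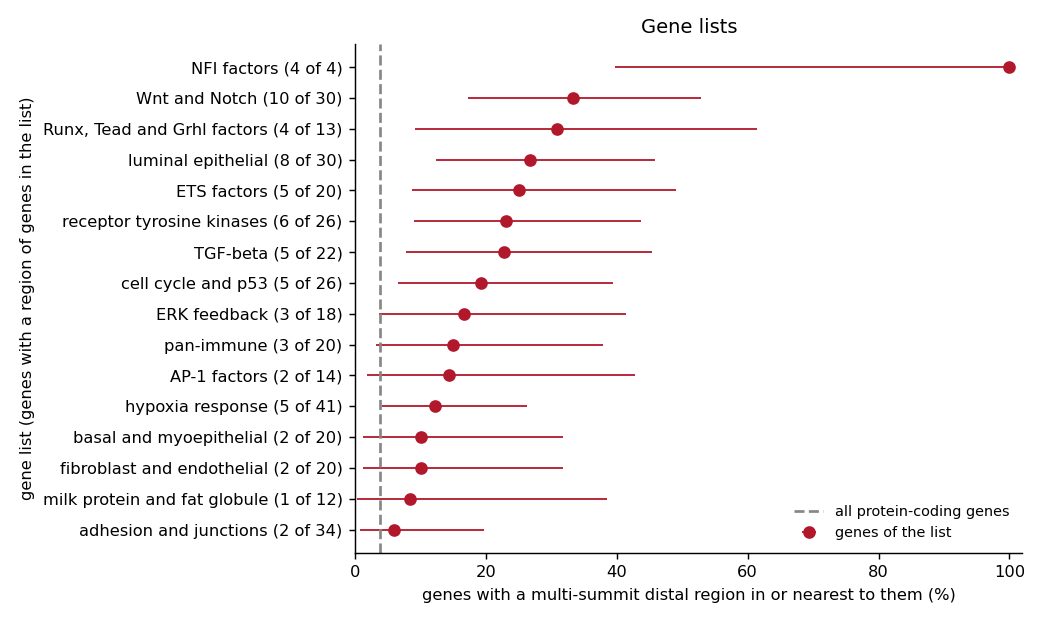
Share of the genes of each list that contain a multi-summit distal region or are the gene nearest to one, with exact 95% intervals and the counts beside each name; the dashed line is the share over all protein-coding genes, 3.74%. The NFI list has all of its 4 genes, Wnt and Notch has 10 of 30, and adhesion and junctions has 2 of 34.

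MicroRNA genes were annotated within 10 kb of the central summit of 20 regions (2.25%, 1.38 to 3.45), against 2.14% (1.65 to 2.72) of distal peaks with 2 windows and 1.68% (1.52 to 1.86) of those with 1. The closest, picked for this description after its value was seen, was a region of 5 windows (chr6:124667960-124670761) whose central summit lay 500 bp from Mir200c, a microRNA of the miR-200 family that holds cells in the epithelial state. Its summits covered 2302 bp, and its first summit is the one printed above under Ptpn6, the nearest protein-coding gene. A region of 5 windows lay 2852 bp from Mir99b, and 2 regions, of 3 and 5 windows, lay 5126 and 7655 bp from Mir23a.

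Motifs of 16 factor families were searched as exact letters on both strands, and for most of them the share of windows in the multi-summit regions was nearer to that in distal peaks with 1 window than to that in start-site peaks. The NFI half-site TTGGCA was in 37.0% (35.3 to 38.8) of member windows, against 39.3% (38.1 to 40.6) in distal peaks with 2 windows, 43.0% (42.3 to 43.6) in those with 1, 20.6% (19.4 to 21.7) in start-site peaks with 3 or more windows and 33.2% of all windows. The AP-1 motif TGANTCA was in 17.5% (16.1 to 18.9), against 17.9%, 19.2%, 8.86% and 14.8% in the same order of classes. RUNX (AACCACA) was in 9.82% (8.78 to 10.9), against 12.2% (11.8 to 12.6) of distal 1-window peaks and 9.44% of all windows. SOX (ACAATG) was in 20.5% (19.0 to 21.9), against 24.2% (23.6 to 24.7) of distal 1-window peaks and 19.1% of all windows. NFY (CCAAT) was in 43.1% (41.3 to 44.9), against 46.1% (45.4 to 46.8) of distal 1-window peaks, 40.1% (38.7 to 41.5) of the start-site windows and 44.4% of all windows, so that for NFY the regions lay about midway and their interval overlapped that of the start-site peaks. For NFI, RUNX, SOX and NFY the intervals of the regions and of distal 1-window peaks did not overlap, and the regions were lower.

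In the other direction, SP/KLF (GGGCGG) was in 22.5% (21.1 to 24.1) of member windows, against 20.7% (19.7 to 21.7) in distal peaks with 2 windows, 16.8% (16.3 to 17.3) in those with 1, 61.8% (60.4 to 63.2) in start-site peaks with 3 or more windows and 37.2% of all windows. The HIF core ACGTG was in 27.3% (25.7 to 28.9), against 24.9% (24.4 to 25.5) of distal 1-window peaks, 35.9% of the start-site windows and 29.4% of all windows. Both motifs hold a CG pair, and CpG-rich windows were more frequent in the regions as given above. The remaining motifs had overlapping intervals in the regions and in distal 1-window peaks. TEAD (CATTCC) was in 26.8% of member windows and 24.7% of all windows, ETS (ACTTCCT) in 18.2% and 16.0%, C/EBP (TTGCNNAA) in 22.0% and 19.0%, and the Snail E-box (CAGGTG) in 38.0% and 36.9%. GRHL (AACNNGTT) was in 10.0% of member windows and 8.41% of all windows, FOX (TGTTTAC) in 7.17% and 6.12%, and the letters AGATAAG of GATA factors in 4.33% and 3.55%. STAT (TTCCNGGAA) was in 2.94% of member windows and 2.24% of all windows, and the CTCF core CNAGGGGGC in 2.18% and 3.64%. Some matches share bases, since 10.9% of the NFI half-sites in member windows overlapped an NFY match and 6.56% a C/EBP match.

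**Figure D4:**
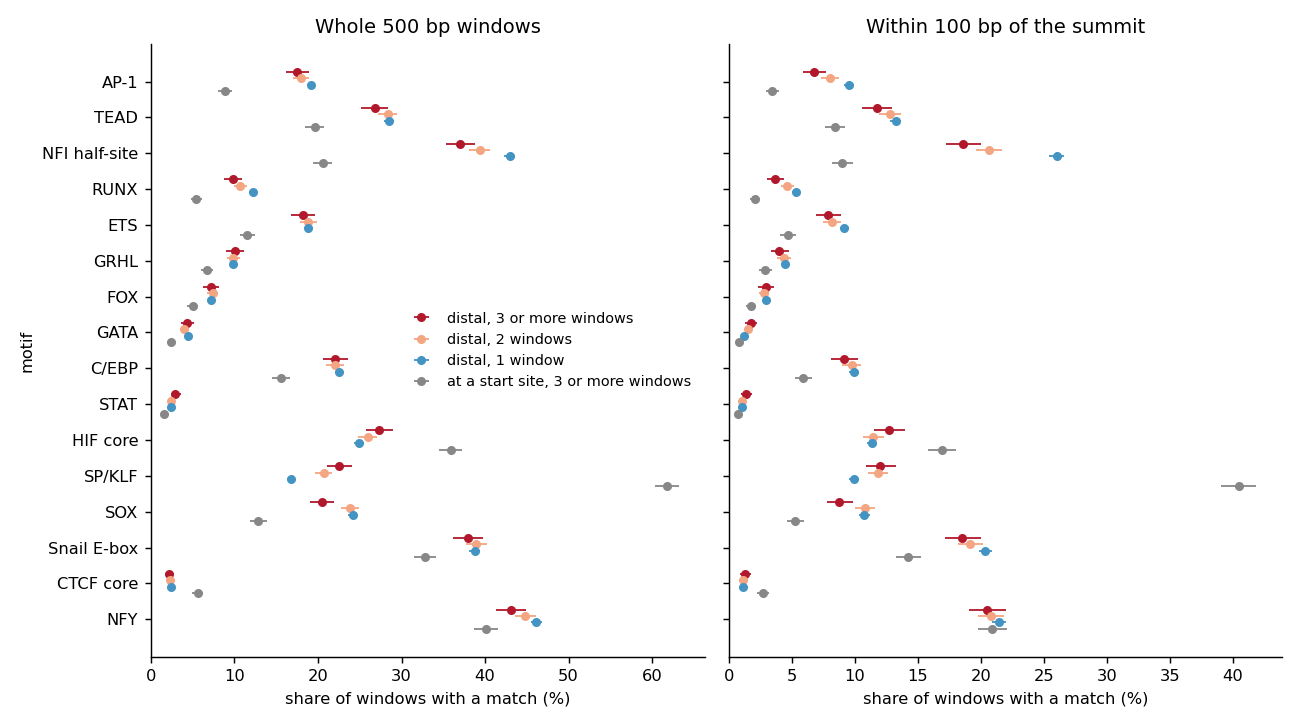
Share of windows with a match to each of 16 motifs, in whole windows (left) and within 100 bp of the summit (right), for 4 classes of called peak, with exact 95% intervals for counting error. The distal classes lie close together and apart from start-site peaks for most motifs; within 100 bp of the summit the NFI half-site is in 18.6% of member windows and 26.0% of distal 1-window peaks.

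The NFI half-site in the regions differed in its position from that in distal 1-window peaks as well. Within 100 bp of a summit it was found at 18.6% (17.2 to 20.0) of the 3025 summits of the regions, against 20.6% (19.6 to 21.7) in distal peaks with 2 windows and 26.0% (25.4 to 26.6) in those with 1, which is a difference of -7.40 percentage points from the last. The number of matches per 25 bp within 50 bp of the summit was 1.40 times that at 150 to 250 bp in the regions, against 1.49 times in distal peaks with 2 windows and 2.26 times in those with 1. For AP-1 this ratio was 1.00 in the regions, against 1.22 and 1.55 in the same 2 classes, and AP-1 lay within 100 bp of 6.78% (5.91 to 7.73) of summits, against 9.51% (9.13 to 9.91) in distal 1-window peaks. For SP/KLF the ratio was 1.44, against 1.72 and 2.19. In these values, matches of the 3 motifs were less centred on the called summits in the regions than in distal 1-window peaks. In start-site peaks with 3 or more windows the ratios were 1.15 for NFI, 1.00 for AP-1 and 1.40 for SP/KLF. These are no higher than in the regions, so weak centring was not particular to the distal regions.

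Windows of neighbouring summits overlap in the regions, so bases beside 1 summit can be close to the next. At the 792 summits with no other kept summit of the region within 500 bp, a set chosen after these values were seen, the NFI half-site was within 100 bp of 20.5% (17.7 to 23.4), against 26.0% in distal 1-window peaks, and its ratio of near to far matches was 1.49, against 2.26. AP-1 was within 100 bp of 6.31% (4.72 to 8.24) of these lone summits with a ratio of 0.800, against 9.51% and 1.55 in distal 1-window peaks, and SP/KLF within 100 bp of 12.4% (10.2 to 14.9) with a ratio of 1.39, against 9.92% (9.53 to 10.3) and 2.19. At lone summits of distal peaks with 2 windows the ratios were 1.74 for NFI, 1.48 for AP-1 and 2.01 for SP/KLF, so in this ratio those peaks were nearer to the 1-window ones than to the regions for AP-1 and SP/KLF. At these lone summits of 2-window peaks the NFI half-site was within 100 bp of 21.4% (19.6 to 23.4), near the share in the regions. GC share was another difference between the classes. In windows with 45 to under 50% GC the NFI half-site was near 20.9% (18.2 to 23.8) of the summits of the regions, against 27.6% (26.6 to 28.6) in distal 1-window peaks, and with 50 to under 55% GC it was near 19.0% (16.6 to 21.5), against 26.7% (25.7 to 27.7). Distal peaks with 2 windows had 20.9% (19.1 to 22.8) and 21.4% (19.6 to 23.2) in these bands. Their intervals overlapped those of the regions, so the lower NFI share was not particular to the regions. For SP/KLF the shares within these bands were 4.49% against 4.98% and 9.10% against 8.92%, with overlapping intervals.

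**Figure D5:**
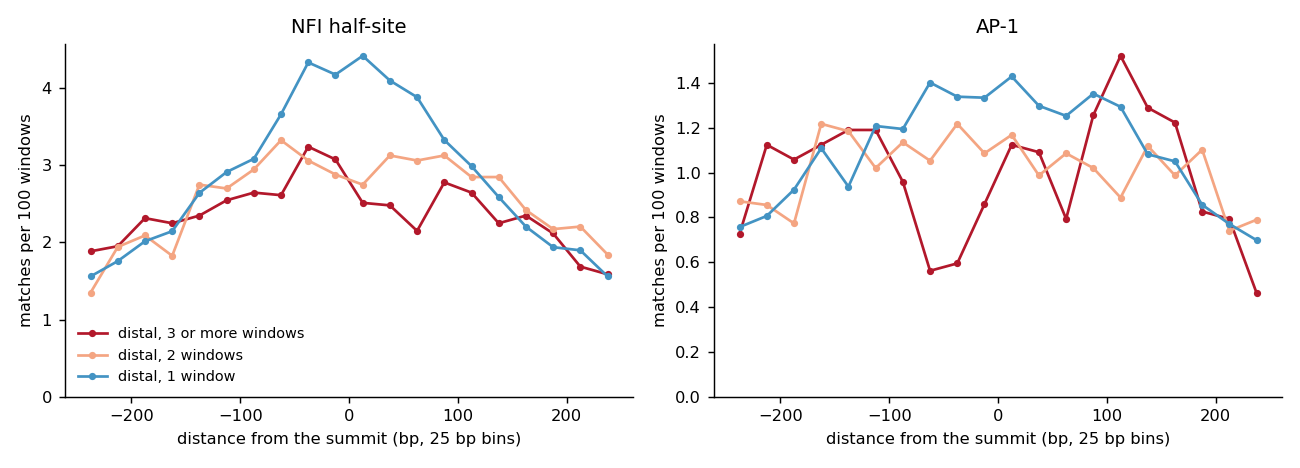
Matches of the NFI half-site (left) and of AP-1 (right) per 100 windows in bins of 25 bp by distance from the summit, for distal peaks with 3 or more, 2 or 1 windows. The NFI curve of distal 1-window peaks reaches 4.42 at the summit, while that of the multi-summit regions stays at or below 3.24; the AP-1 curve of the multi-summit regions has the same mean level within 50 bp of the summit and at 150 to 250 bp, 0.917.

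The first and last summits of a region held motifs about as often as those between them. The NFI half-site lay within 100 bp of 18.2% (16.1 to 20.5) of the 1245 inner summits and 18.9% (17.1 to 20.8) of the 1780 outer ones, and AP-1 within 100 bp of 7.23% (5.85 to 8.81) and 6.46% (5.36 to 7.70). The intervals of inner and outer summits overlapped for all 16 motifs. Both an AP-1 and an NFI match were found in the windows of 30.0% of the 890 regions, NFI only in 40.8%, AP-1 only in 9.89% and neither in 19.3%. Of 10 families (AP-1, NFI, RUNX, TEAD, ETS, GRHL, FOX, GATA, C/EBP and STAT), a region most often held 4, as 24.8% did, while 2 regions held 8 and 19 held none. These combined counts are over all windows of a region, so they grow with its length, and they were not compared with other classes. Per kb of merged windows the regions held 0.386 AP-1 and 0.954 NFI matches, against 0.442 and 1.14 in distal 1-window peaks.

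Regions with more windows differed little in their shares of NFI and AP-1 matches. The NFI half-site was in 37.4% (35.3 to 39.6) of the windows of regions with 3 windows, 34.7% (31.0 to 38.6) with 4, 42.0% (35.8 to 48.4) with 5 and 33.9% (26.9 to 41.5) with 6 or more, and AP-1 was in 17.9%, 16.8%, 14.8% and 18.7% of the same windows. The share of regions with a CpG-rich window was 13.7% (11.2 to 16.6) with 3 windows, 21.4% (15.3 to 28.6) with 4, 22.0% (11.5 to 36.0) with 5 and 28.0% (12.1 to 49.4) with 6 or more. This counts any window of a region, so it also grows with the number of windows. A nearest gene with an open start site was found for 76.4%, 80.5%, 74.0% and 64.0% (42.5 to 82.0) of the regions in these 4 classes, with overlapping intervals.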

How the data were processed

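Single cells of the tumour were profiled by ATAC-seq. Per the study's methods, the authors mapped reads to mm9 with Bowtie2 version 2.1.0, removed duplicates (Picard version 1.79) and mitochondrial reads, called summits on pooled cells with MACS2, whose version is not given in the sources used here, widened each to 500 bp and kept the 50000 with the lowest q-values. The deposited values are positions only (unit: other), without scores, counts or fold values. A called peak can hold several nearby summits, and the cut at 50000 limits how many of them it keeps. Positions were compared with the genome NCBIM37 (the same build) and GENCODE M1, using 45993 start sites of protein-coding transcripts. Taking all transcripts of those genes gives 852 regions instead of 890. The summit is the window's midpoint, and the central summit stands for a region. A gene counts when it holds the central summit or has the nearest start. The region members, the 16 gene lists (350 entries, all matched, 4 of them through RefSeq synonyms) and the motifs were chosen with earlier results of these data known. Named were the regions with the most windows, the 5 genes with the most regions, up to 4 genes of each list by windows and the 3 densest bins of 1 Mb, and other names were picked after their values were seen. Python 3.11.15, pandas 2.3.3, scipy 1.17.1 and BLAST 2.17.0 were used, and the motif search and the grouping of windows were tested on simulated data. Alternatives changed the number of windows, the distance, the start sites, the width around the summit and the neighbour distance. The bases of 1 named region are not reported here. The 960 wells were not compared, since no values per well were used.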

Additional observations from a re-analysis of the deposited data

How the results depend on the processing

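No paired analysis was possible because the list is 1 pooled sample and no test was run. Of 82 values under alternatives, 55 stayed within the 95% counting interval of the reported value (or, for the number of regions, within 1.5 times) and 27 moved. Only the NFI difference near the summit could change sign, and it did not. With 2 or more windows 10.2% of called peaks (3929) counted as regions, with a median spacing of 0.401 kb, a first-to-last distance of 0.462 kb, a CpG ratio of 0.248 and another region within 50 kb for 46.5%. With 4 or more windows 0.609% counted, and these values were 0.443 kb, 1.49 kb and, for neighbours, 10.3%, with 53.0% between genes, 38.0% in introns and SP/KLF in 24.5% of windows. With every summit over 5 kb from a start site, SP/KLF was in 20.6%, the median GC share was 50.8% and 19.3% had a neighbour. With start sites of all annotated genes, 65.7% had an open nearest gene, SP/KLF was in 21.1%, the GC share was 50.8% and the CpG ratio 0.251. Counting windows within 5 kb of a start site as open gave 84.8%, and neighbours within 20 kb gave 14.9%. Within the central 200 bp, which is shorter, AP-1 was in 6.78%, NFI in 18.6% and SP/KLF in 12.0% of windows. With 1 central window a region the GC share was 51.6%. At summits with no other within 500 bp, chosen after seeing the data, NFI was in 39.0% of windows, and the difference near the summit was -5.56 percentage points. Depth, replicate spread and the cells behind each region are unknown, and fewer cells with an open region and less signal per cell cannot be told apart.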

Other observations

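Some regions share sequence with each other. An alignment of the 890 regions gave 4 pairs with at least 300 aligned bases. The regions near Tmem68 (5 windows) and Rps20 (4 windows), 283574 bp apart on chromosome 4, were 96.8% identical over 1454 bp, a stretch that holds all 4 summits near Rps20. The 2 regions near Klrb1b on chromosome 6 were 82.5% identical over 0.668 kb. The region near Ly6e (9 windows, chromosome 15) and one near Fcho1 (3 windows, chromosome 8) were 97.8% identical over 0.536 kb, a stretch from 3118 to 3652 bp after the first summit at Ly6e that holds 1 of its 9 summits. The regions near Mreg and Pecr on chromosome 1 were 95.9% identical over 0.465 kb. The part of shared sequence in read mapping at these regions was not tested.

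Outside the named lists, the region with the closest summits among the 25 largest lay near Derl3, with 6 summits in 1373 bp and gaps of 0.230 to 0.334 kb. It was also the one with the most NFI windows for its size, 5 of 6, and no AP-1 match. Near Gas6, a ligand of TAM receptors, and 1700029H14Rik, 4 regions with 15 windows lay in 60.2 kb (chr8:13471193-13531376), and near Cebpb and Ptpn1 4 regions with 13 windows lay together (chr2:167557597-167660523). These groups were picked after their values were seen.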
